A study of Homo sapiens with 4 samples.

Results

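The genes described here trim, transport and load the peptides that class I major histocompatibility complex (MHC) molecules display. The 10 genes are TAP1, TAP2, TAPBP, TAPBPL, ERAP1, ERAP2, LNPEP, CALR, CANX and PDIA3, and they were taken from the array by gene symbol. Of these, 9 had a named transcript cluster (a probe set that summarises 1 locus) among the 21448 on the array. LNPEP had none named and is not analysed here. The list was drawn up with the contrast between fb-PMT and control in view, so the differences of its members are given as a description, without p-values.

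The study treated SUIT2 cells with 30 µM fb-PMT for 24 h (n = 2 arrays), and its control cells received phosphate-buffered saline, for equally long (n = 2 arrays). fb-PMT couples an analog of thyroid hormone to polyethylene glycol and is aimed at integrin αvβ3. The labels describe SUIT2 as a glioblastoma line, whereas SUIT-2 is generally known as a carcinoma line of the pancreatic duct. All 4 arrays carry RNA of this 1 line, and separate cultures are not stated for the replicates, so the errors measure only how far these samples differ, possibly for technical reasons. The values are averages over a culture, so a change in every cell and a change in a fraction of the cells cannot be told apart.

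Values are on the log2 scale after RMA, which corrects background, normalizes the arrays to each other and summarises each probe set. A gene under the 95th percentile of the array's negative control probe sets (7.15 to 7.38 on the 4 arrays) is called below the negative controls. The 4 array medians were 6.27 to 6.28. Of 6 epithelial markers, 5 were above the negative controls on all 4 arrays (KRT7, KRT8, KRT18, KRT19 and EPCAM, but not CDH1). None of the 4 glial markers (GFAP, OLIG2, SOX10 and S100B) was above them on any array, against the glioblastoma label. Among leukocyte markers PTPRC, CD3E and CD14 were below on all 4 arrays, and CD68 was above on all 4. Of the fibroblast markers COL1A1, DCN and PDGFRB stayed below on all 4 arrays, and COL1A2 was above on all 4 (8.34 and 7.90 in control cells, against 8.18 and 8.02 after fb-PMT).

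Class I molecules carry short peptides to the cell surface, where cytotoxic T cells read them. The peptides are cut by the proteasome and pumped into the endoplasmic reticulum (ER) by TAP, a transporter made of TAP1 and TAP2. There ERAP1 and ERAP2 trim their amino ends, and the peptide loading complex (tapasin, calreticulin and ERp57) holds the class I molecule open until a stable peptide is bound. Interferons are known to induce the dedicated genes of this route through STAT and IRF transcription factors, whereas calnexin, calreticulin and ERp57 serve the folding of glycoproteins in general.

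The promoters of the members were searched for short motifs, as a description of their letters. RefSeq windows (GRCh38.p14) run from 250 bases before to 50 after each annotated start, and 9 of the 10 genes have 17 of them. PDIA3 has none in the table, and LNPEP is included although the array does not name it. The core of the interferon-stimulated response element (ISRE), GAAA followed by any 2 bases and GAAA on either strand, was in a window of 5 members: TAP1, TAP2, TAPBP, ERAP1 and ERAP2. Of all 27305 genes in the promoter table, 4.38% have it in at least 1 window, and of all 35116 windows, 3.57% hold it. These are the sites, 30 bases each, with the matched letters in capitals (TTTC repeats are the same core read on the other strand).
TAP1, GRCh38.p14 chr6:32853816-32853845, minus strand: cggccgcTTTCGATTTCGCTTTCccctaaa
TAP2, GRCh38.p14 chr6:32838778-32838807, minus strand: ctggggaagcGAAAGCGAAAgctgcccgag
TAPBP, GRCh38.p14 chr6:33314076-33314105, minus strand: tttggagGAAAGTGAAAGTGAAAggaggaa
ERAP1, GRCh38.p14 chr5:96807924-96807953, minus strand: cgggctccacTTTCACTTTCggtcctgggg
ERAP2, GRCh38.p14 chr5:96876460-96876489, plus strand: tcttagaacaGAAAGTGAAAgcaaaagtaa

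In TAP1 and in TAPBP a pair of cores overlapped, so that 3 repeats of the GAAA letters followed each other. The matches lay at -134 to -119 from the start in TAP1, -58 to -49 in TAP2, -20 to -5 in TAPBP and -30 to -21 in ERAP2, and in ERAP1 just inside the transcript at 3 to 12. TAPBPL held no ISRE core in either of its windows. A match is a description of the letters and does not show that a factor binds there.

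The whole stretch of 250 bases upstream of the TAP1 start is printed because it is the side that faces PSMB9, the neighbouring proteasome gene. Capitals mark, in this order, the ISRE cores, an NF-kB type match (GGG, any 2 bases, TTTCC) and a GC box (GGGCGG, here on the other strand).
TAP1, GRCh38.p14 chr6:32853705-32853954, minus strand: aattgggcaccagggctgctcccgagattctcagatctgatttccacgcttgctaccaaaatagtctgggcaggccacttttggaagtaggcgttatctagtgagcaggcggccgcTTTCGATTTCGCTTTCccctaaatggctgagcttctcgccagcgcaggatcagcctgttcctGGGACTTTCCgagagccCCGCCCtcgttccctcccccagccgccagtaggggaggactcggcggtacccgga

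The NF-kB type letters were in windows of TAP1, TAPBP and TAPBPL, against 2.33% of all genes. GAS letters (TTCNNNGAA) were in windows of TAP1 and LNPEP, against 9.38% of all genes. GC boxes were in windows of 7 of the 9 genes, against 48.3% of all genes. The 1 window of PSMB9 held GC boxes but no ISRE core, GAS or NF-kB type letters.

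The ER stress element, CCAAT followed by any 9 bases and CCACG on either strand, was in windows of CALR and CANX, 2 of the 9 genes with a window, and 0.0916% of all genes hold it. The sites are shown with the matched letters in capitals, and the CALR match is on the other strand.
CALR, GRCh38.p14 chr19:12938379-12938408, plus strand: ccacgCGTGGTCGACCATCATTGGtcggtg
CANX, GRCh38.p14 chr5:179698773-179698802, plus strand: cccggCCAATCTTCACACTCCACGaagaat
The CANX site is the same stretch in 3 overlapping windows of its 4 annotated starts. The UPR element letters TGACGTG were in 0 of the members' windows, and 2.4% of all genes hold them.

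**Figure D1:**
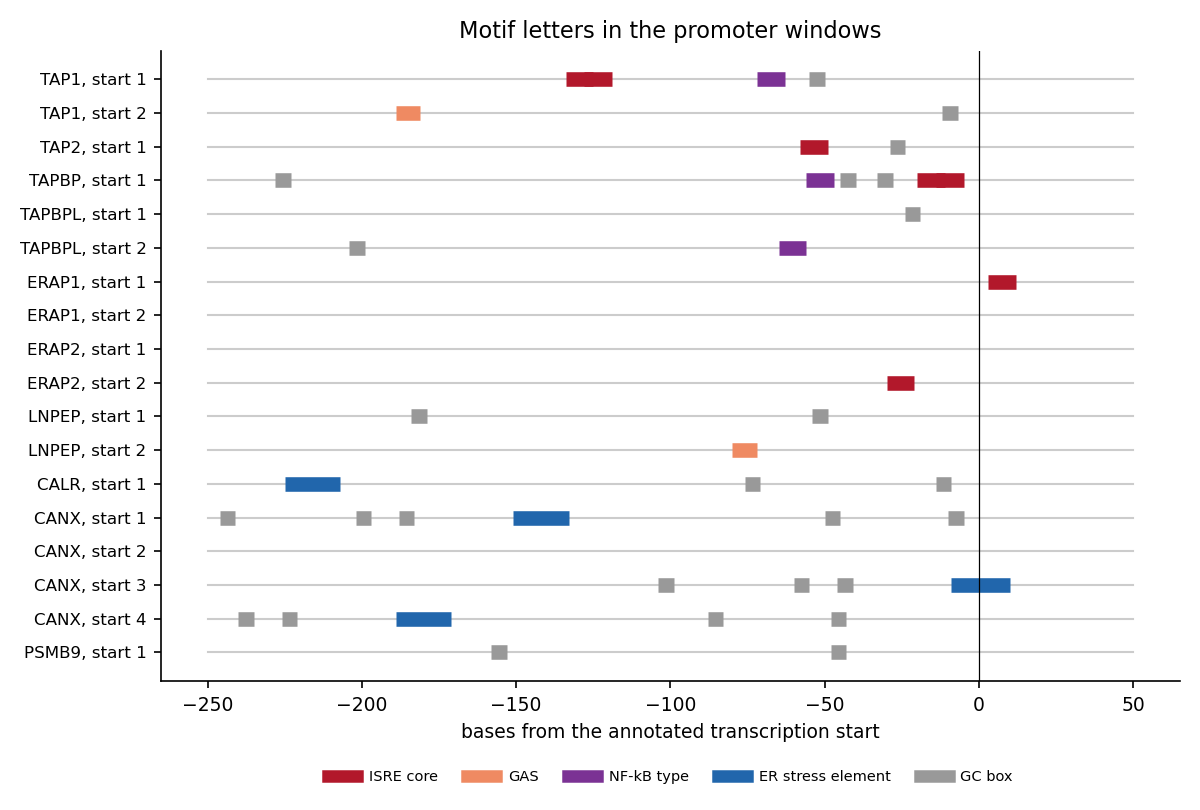
Motif matches in the promoter windows of the members and PSMB9, by distance in bases from each annotated transcription start (0 on the x axis), with 1 line per start. ISRE cores (dark red) lie in windows of TAP1, TAP2, TAPBP, ERAP1 and ERAP2, and ER stress elements (blue) in windows of CALR and CANX.

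All 6 measured genes dedicated to transport, peptide editing and trimming were higher with fb-PMT, by log2 differences of 0.77 to 1.55 with a median of 1.07. For TAP1 both control values were below the negative controls, so its part in this median is uncertain. The 3 general folding genes differed by 0.046 to 0.15, with a median of 0.059. Over all 21448 transcript clusters the median difference was -0.017, and over the 9199 above the negative controls on both arrays of at least 1 group it was 0.011. Epithelial markers differed between the same groups without passing. KRT7 was at -0.95 (adjusted p = 0.192), KRT18 at -0.46 (adjusted p = 0.396), KRT8 at -0.29 (adjusted p = 0.522) and KRT19 at -0.19 (adjusted p = 0.679), while EPCAM was at 0.35 (adjusted p = 0.459), each with groups that did not overlap. The mean over the 6 epithelial markers was 13.69 and 13.63 in control cells, against 13.40 and 13.43 after fb-PMT, and the part of this in the members' differences was not tested.

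TAP1 makes 1 of the TAP subunits. Its values were 6.53 and 6.98 in control cells, against 7.90 and 7.57 after fb-PMT. TAP1 thus lay under the negative controls in both control samples and over them in both fb-PMT samples, and its fold can only be bounded: it was at least 1.35-fold higher (measured log2 difference 0.98, SE 0.22). The groups did not overlap, and differences between single arrays ran from 0.59 to 1.37.

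TAP2, the other subunit of the transporter, had values of 9.10 and 8.88 in control cells, against 9.65 and 9.86 after fb-PMT. The groups were apart by 0.54, more than the gap of 0.23 between the control arrays and of 0.22 between the fb-PMT arrays. TAP2 was 1.7-fold higher with fb-PMT (log2 difference 0.77, SE 0.17). As measured, this was the smallest difference of the 6 dedicated genes, although TAP1 has only a bound.

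TAPBP encodes tapasin, which tethers class I molecules to TAP and favours tightly bound peptides. Its values were 11.16 and 11.27 in control cells, against 12.32 and 12.43 after fb-PMT. It had the smallest SE of the 6 genes, with gaps of 0.11 within each group and 1.05 between the groups. The fold was 2.24 (log2 difference 1.16, SE 0.15).

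TAPBPL encodes TAPBPR, a relative of tapasin that edits the peptides of class I molecules outside the loading complex. Its values were 10.47 and 10.67 in control cells, against 12.26 and 11.98 after fb-PMT. This was the largest difference among the members, 2.93-fold (log2 difference 1.55, SE 0.18), with the groups apart by 1.31. In the order of all 21448 differences it was at position 43 from the highest.

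ERAP1, the aminopeptidase that shortens long precursors to the length class I molecules bind, had values of 11.19 and 11.13 on the control arrays. On the fb-PMT arrays they were 12.14 and 11.91, and the groups did not overlap. The fold was 1.82 (log2 difference 0.87, SE 0.16).

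ERAP2, a related aminopeptidase with a preference for basic amino ends, had values of 11.30 and 11.85 in control cells, against 13.12 and 12.97 after fb-PMT. The control arrays differed by 0.55, the widest replicate gap among the 6 dedicated genes, while the groups were apart by 1.11. ERAP2 was 2.77-fold higher (log2 difference 1.47, SE 0.22), and 1.19 to 1.75 on the log2 scale when 1 array was left out.

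In each of these 6 genes the distance between the groups was larger than the distance between replicates of either group. The members were chosen on this contrast, so nothing is read from that count. No fixed order of the replicates ran through them: fb-PMT replicate 1 was above replicate 2 in 4 of the 6, and control replicate 1 above replicate 2 in 2 of the 6. In ascending order of the difference the genes were TAP2, ERAP1, TAP1, TAPBP, ERAP2 and TAPBPL, and the intervals of 1 SE around each pair of neighbours in this order overlapped. TAP1 has only a bound on its fold, so its place in this order is not fixed.

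**Figure D2:**
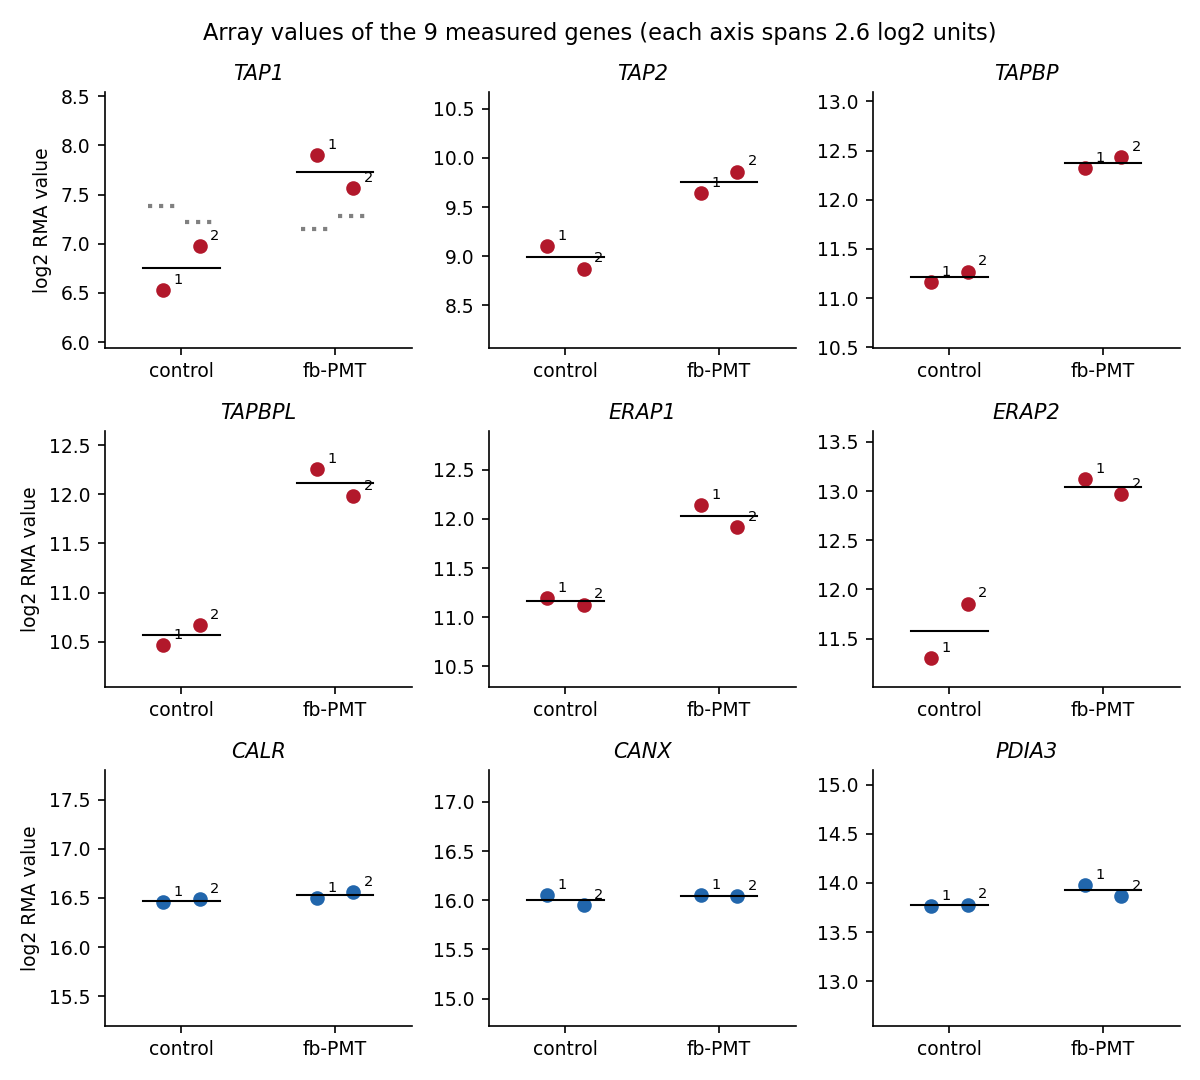
Log2 RMA values of the 9 measured genes on the 2 control and 2 fb-PMT arrays (points numbered by replicate), with group means as black lines. Dotted grey marks in the TAP1 panel are the 95th percentile of the negative controls on each array. The 6 dedicated genes (red) are apart between the groups, and the values of CALR, CANX and PDIA3 (blue) lie close together.

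CALR encodes calreticulin, a soluble lectin chaperone that is part of the loading complex. Its values were 16.46 and 16.48 in control cells, against 16.50 and 16.56 after fb-PMT. The difference was 0.059 (SE 0.15, 1.04-fold), and although the groups did not overlap, they were apart by only 0.016. The membrane-bound lectin chaperone calnexin, encoded by CANX, receives newly made class I heavy chains. CANX had values of 16.05 and 15.95 in control cells, against 16.05 and 16.04 after fb-PMT, which overlap. Its difference was 0.046 (SE 0.15), with -0.0086 to 0.0999 between single arrays.

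PDIA3 encodes ERp57, the disulfide isomerase that is bound to tapasin in the loading complex. Its values were 13.77 and 13.78 in control cells, against 13.98 and 13.87 after fb-PMT. The difference was 0.15 (SE 0.15, 1.11-fold), with the groups apart by 0.088. CALR and CANX were bright, and the highest value of any transcript cluster was 18.05. Whether signal near the top of the range compresses differences was not tested.

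**Figure D3:**
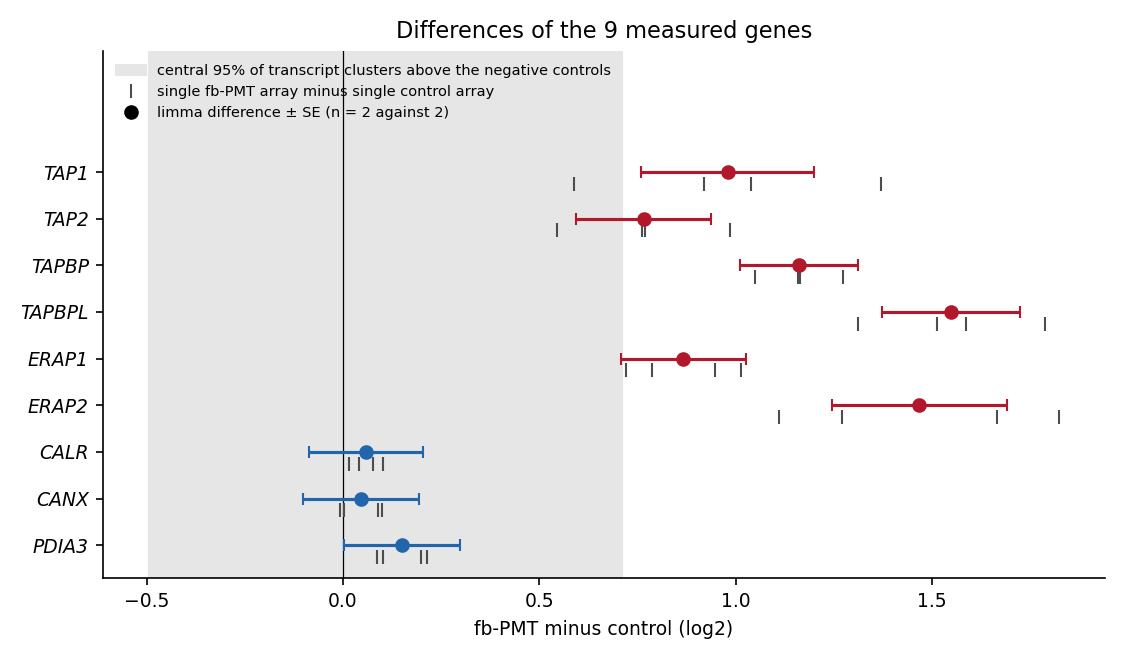
Differences between fb-PMT and control on the log2 scale from limma, with error bars of 1 SE (n = 2 arrays against 2), and the 4 differences between single arrays as ticks. The grey band holds the central 95% of transcript clusters above the negative controls, from -0.49 to 0.71. The points of the 6 dedicated genes lie beyond its upper edge and CALR, CANX and PDIA3 inside it. The TAP1 point rests on control values below the negative controls, and its fold has only a bound (at least 1.35-fold).

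In limma's fit over all transcript clusters 0 of the 9 members passed an adjusted p of 0.05, where 0.0979% of all transcript clusters passed, all of them higher. With no adjustment, 6 of 9 members had a p under 0.05 and a higher value, where 5.7% of all transcript clusters did, and 0 a lower value, where 5.49% did. Both fb-PMT arrays lay above both control arrays in 8 of 9 members, where 20.2% of all transcript clusters did so, and below them in 0, where 22.3% did. The fb-PMT contrast is what the members were chosen on, so nothing is read from these counts. With an intensity trend in the variance 5 members passed (ERAP1, ERAP2, TAP2, TAPBP and TAPBPL), where 1.37% of all passed as higher. With the test kept to transcript clusters above the negative controls 6 passed, where 2.55% did so as higher. TAP1 entered that test only through its fb-PMT arrays.

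**Figure D4:**
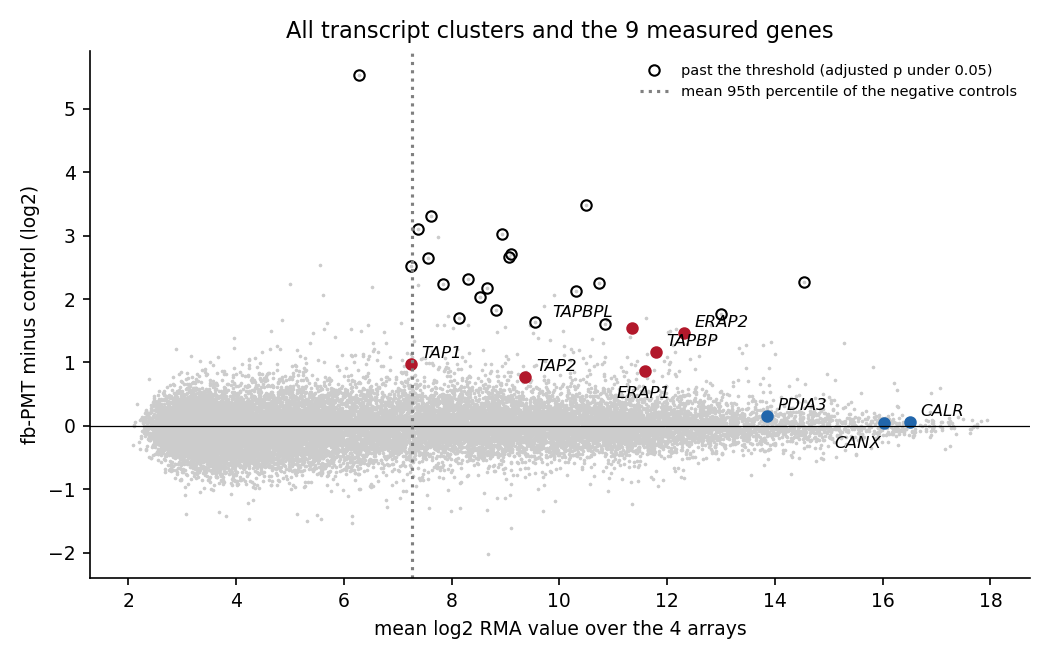
Difference between fb-PMT and control (log2, y axis) against the mean log2 RMA value over the 4 arrays (x axis) for all 21448 transcript clusters (grey). Open circles are the 21 past the threshold, red and blue points the 9 measured genes, and the dotted line the mean 95th percentile of the negative controls. TAPBPL and ERAP2 lie highest among the 9, below each of the 21.

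Other genes of the pathway were taken from 11 lists of 118 genes, of which 104 were measured. Of these, 2 rose past the threshold (PSMB9 and IRF1) and 0 fell. Without control replicate 1, IRF1 alone passed, and without control replicate 2, fb-PMT replicate 1 or fb-PMT replicate 2, 0 of them did. With no adjustment 18 had a p under 0.05, of which 16 were higher and 2 lower, where 5.7% and 5.49% of all transcript clusters were, and the median difference was 0.098. The 2 lower genes did not reach the negative controls on any array. The lists were written with earlier results of these data known.

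Of 9 measured proteasome genes, which supply the peptides, 7 were higher and 2 lower. Only PSMB9, a catalytic subunit of the immunoproteasome, passed the threshold. PSMB9 had values of 12.14 and 12.09 in control cells, against 13.90 and 13.87 after fb-PMT, a 3.41-fold rise (SE 0.14 on the log2 scale, adjusted p = 0.0345). PSMB10, another immunoproteasome subunit, was 3.72-fold higher but with a spread of 8.33 to 9.22 between its control arrays (adjusted p = 0.186). PSMB8, the remaining inducible catalytic subunit, was 2.44-fold higher (adjusted p = 0.0779), and PSME1, a subunit of the proteasome activator PA28, 1.72-fold higher (adjusted p = 0.279). The constitutive subunit genes PSMB5, PSMB6 and PSMB7 had differences of 0.27, -0.048 and 0.19 (adjusted p = 0.632, 0.94 and 0.667).

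Among 9 measured class I molecules and their transcription factors 0 passed. With no adjustment 5 had a p under 0.05, all higher, where 5.7% of all transcript clusters did, and the median difference was 0.56. HLA-C, a class I heavy chain, was 2.14-fold higher (adjusted p = 0.126), and HLA-F, a class I molecule of limited polymorphism, 1.98-fold higher (adjusted p = 0.186). B2M, the light chain that all class I molecules share, went from 15.40 and 15.33 to 16.26 and 16.31 (1.9-fold, adjusted p = 0.151). Class I heavy chains are similar in sequence, so their probe sets can share signal. NLRC5, known as the transactivator of class I genes, was below the negative controls on all 4 arrays.

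Of 11 measured interferon signalling genes, 8 were higher and 3 lower. Only IRF1, a transcription factor that binds ISRE-type sites, passed the threshold. IRF1 had values of 7.83 and 7.64 in control cells, against 10.35 and 10.56 after fb-PMT (6.57-fold, adjusted p = 0.0179). IRF9, the DNA-binding subunit of the type I interferon signalling complex, was 1.48-fold higher (adjusted p = 0.344). No array had JAK2 or SOCS1 above the negative controls.

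Other lists held relatives of the trimming enzymes and of TAP, and cytosolic peptidases. Of 8 measured M1 aminopeptidases other than the members, 0 passed and the median difference was 0.11. ANPEP, a surface aminopeptidase, was 1.26-fold higher (adjusted p = 0.489), and RNPEPL1 1.23-fold higher (adjusted p = 0.595). Cytosolic peptidases, which destroy or shorten peptides before TAP takes them up, had a median of -0.0022 over 11 genes, and 0 passed. LAP3, an interferon-inducible leucine aminopeptidase, had the largest difference there (0.53, adjusted p = 0.386), and THOP1, thimet oligopeptidase, was at -0.32 (adjusted p = 0.516). Of 4 measured ABCB relatives of TAP, 3 did not reach the negative controls on any array, and ABCB10, a mitochondrial transporter, was at 0.11 (adjusted p = 0.842). ABCB9, the gene of a lysosomal peptide transporter known as TAP-like, was among the 3.

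Genes that work beside CALR, CANX and PDIA3 in the ER were taken in 4 lists. Of 15 measured calnexin cycle genes 0 passed, with a median of 0.084, and the lectin genes OS9 and ERLEC1 were at 0.33 (adjusted p = 0.484) and 0.24 (adjusted p = 0.614). Of 16 measured disulfide isomerase and oxidase genes 0 passed, with a median of 0.17. With no adjustment 3 were higher and 1 lower with a p under 0.05, where 5.7% and 5.49% of all transcript clusters were. The 1 lower gene was among 4 of the 16 that did not reach the negative controls on any array. ERP29, an ER protein of the disulfide isomerase fold, was at 0.74 (SE 0.25, adjusted p = 0.39), and ERO1B, an oxidase, at 0.59 (adjusted p = 0.332). The list of ER Hsp70 and Hsp90 chaperones had a median of 0.17 over 10 measured genes, and 0 passed. HSP90B1, its Hsp90 gene, was not among those measured. The co-chaperone genes DNAJB11 and DNAJB9 were at 0.32 (adjusted p = 0.51) and 0.23 (adjusted p = 0.673). ER entry and export genes had a median of 0.019 over 6 genes and 0 passed. BCAP31, an ER export receptor, was at 0.14 (adjusted p = 0.777) and SEC63, of the translocon, at -0.15 (adjusted p = 0.764).

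LNPEP, which trims endosomal peptides for cross-presentation, was not measured by name. Partners of its storage vesicles were listed instead, and they do not show the level of LNPEP. Of 6 such partner genes measured 0 passed and the median difference was -0.036, with 3 of the 6 below the negative controls on all 4 arrays. RAB10 was at -0.25 (adjusted p = 0.584) and TBC1D4 at -0.12 (adjusted p = 0.838), both regulators of vesicle traffic.

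**Figure D5:**
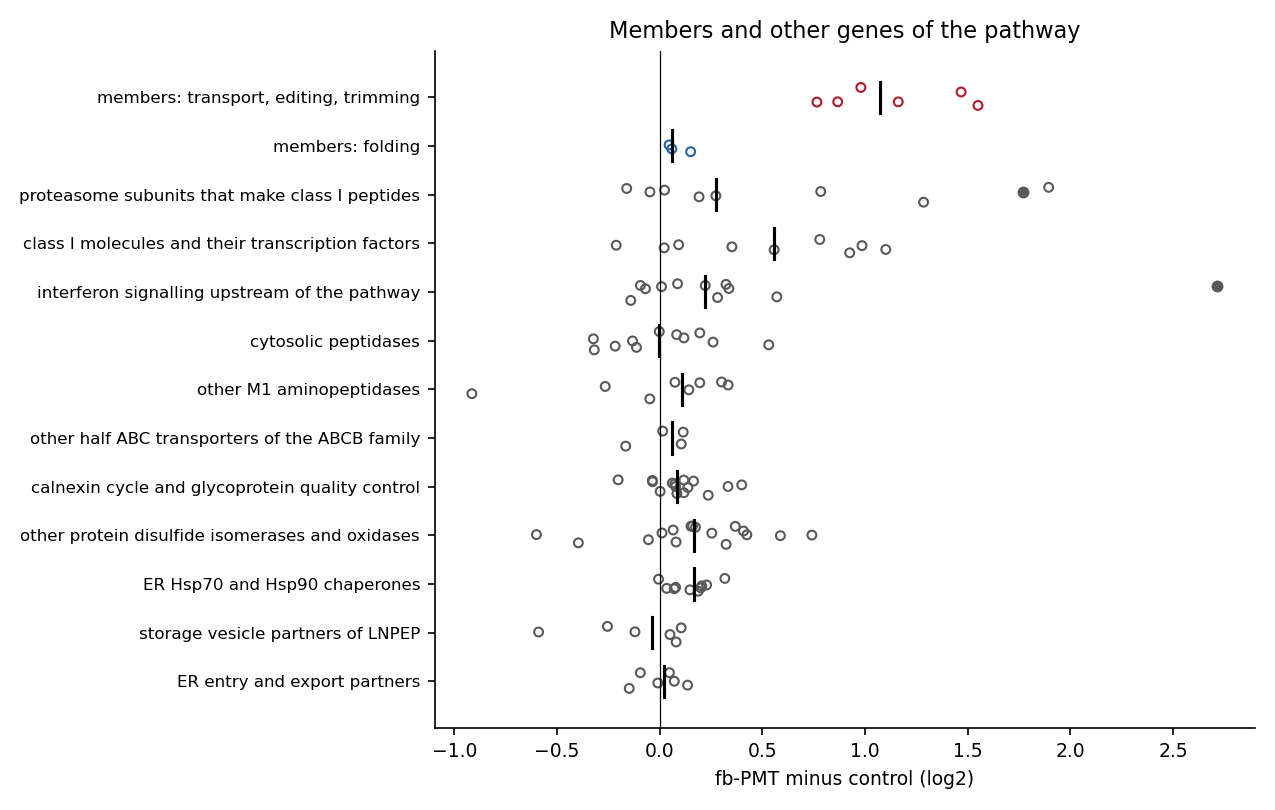
Log2 differences between fb-PMT and control (x axis) of the 9 measured members and of the 11 lists of other pathway genes, 1 circle per gene, with the median of each list as a black bar. Filled circles are PSMB9 and IRF1, which passed the threshold. The medians are 1.07 for the 6 dedicated members and 0.059 for the 3 folding members. TAP1, among the 6, has control values below the negative controls.

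Of the dedicated genes, TAP1 lies near TAP2 and ERAP1 beside ERAP2 in the genome. The measured neighbours of the members were looked up in RefSeq gene order. TAP2, PSMB8, TAP1 and PSMB9 follow each other on chromosome 6 in the class II part of the MHC. In all 4 of this block both fb-PMT arrays lay above both control arrays, where 20.2% of all transcript clusters did so. For TAP1 the control values (6.53 and 6.98) did not reach the negative controls. TAP1 and TAP2 are members chosen on this contrast, so nothing is read from the count about the block. At its ends this block is flanked by HLA-DOB, below the negative controls on all 4 arrays, and by HLA-DMA, a class II peptide editor, 2.49-fold higher (adjusted p = 0.115). TAPBP lies farther along chromosome 6, and its measured neighbours B3GALT4 and ZBTB22 did not reach the negative controls on any array. ERAP1 and ERAP2 are adjacent on chromosome 5, where CAST, the calpain inhibitor gene on the ERAP1 side, was at 0.095 (SE 0.16, adjusted p = 0.862). Neither neighbour of TAPBPL on chromosome 12, CD27 and VAMP1, was above the negative controls on any array. On chromosome 19, the neighbours of CALR, FARSA and GADD45GIP1, were at 0.017 and 0.012 (adjusted p = 0.979 and 0.986).

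The genes whose profile over the 4 arrays lay closest to that of TAPBPL, after each was centred on its own mean, were GBP3, APOL2 and MX1. Their root mean square distances were 0.043, 0.046 and 0.082 log2 units, the smallest of 8090 named transcript clusters compared. GBP3, a guanylate-binding protein, was 2.89-fold higher (adjusted p = 0.0675), APOL2, of the apolipoprotein L family, 2.79-fold higher (adjusted p = 0.0675) and MX1, an antiviral GTPase, 3.02-fold higher (adjusted p = 0.0556). With 4 arrays in 2 groups this likeness mostly reflects the size of the difference between the groups.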

How the data were processed

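Total RNA of 4 samples was labelled with biotin and hybridised to 1-colour whole-transcript arrays. The authors deposited log2 values per probe set. The submitters' processing notes name RMA and Transcriptome Analysis Console 4.0.1.36. Neither the variant of RMA nor the array's genome build is stated there (not given in the sources used here). Of 24351 probe sets, 2903 controls were left out. Of the 21448 transcript clusters tested, the platform annotation gives 1 symbol for 17709, several for 0 and none for 3739. All 17709 gene identifiers matched the RefSeq gene table (GRCh38.p14), which gave names and gene order only. RMA shrinks differences of dim probe sets.

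The model was limma's (version 3.58.1, R 4.3.3), fitted per transcript cluster with lmFit and with eBayes without trend or covariate (2 residual and 3.72 prior degrees of freedom), two-sided, with Benjamini-Hochberg adjustment over all of them and a threshold of 0.05. The number of arrays limits the precision (median SE of a log2 difference 0.175). The fit was tested on simulated data. Against a group below the negative controls (612 probe sets) a fold is a bound from their 95th percentile. The main fit did not pair arrays by replicate number. Over all transcript clusters the deviations of same-numbered arrays had a correlation of 0.042, which does not show whether these arrays were paired.

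The members and lists were chosen with earlier results of these data known. All members are named, and from each list the passing genes and the 2 largest differences above the negative controls, with PSMB9 and the markers always. TAPBPL, with the largest difference, was matched to its 3 most similar genes. Genes named beyond this rule (PSMB5 to PSMB8, PSME1, B2M, NLRC5, JAK2, SOCS1, ABCB9 and the chromosomal neighbours) were chosen after their values were seen. As alternatives, arrays were blocked by replicate number, weighted, centred on their medians, quantile-normalized again, or left out in turn. The variance was given an intensity trend, also with robust estimates. The lowest 30% of transcript clusters, those below the negative controls or those without a symbol were dropped, those of 1 symbol were averaged, and the threshold was set to 0.1.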

Additional observations from a re-analysis of the deposited data

How the results depend on the processing

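The 6 dedicated genes stayed higher with fb-PMT under all 14 alternatives that give a difference, from 0.65 to 1.75 on the log2 scale. Of the 126 member values 1 changed sign: CANX was at -0.00285 without control replicate 2. When 1 array was left out, the median of the members was 0.81 to 0.98, that of the dedicated genes 1.00 to 1.21 and that of the folding genes 0.051 to 0.094.

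Calls moved more than values. The count of 21 transcript clusters became 403 with an intensity trend, 394 with robust variances as well, 318 above the negative controls only, 67 without the lowest 30%, 44 with 1 symbol only, 73 at a threshold of 0.1, 9 without control replicate 1, 5 without control replicate 2 and 1 without either fb-PMT replicate. The members called, 0, became 5, 5, 6, 1, 1 and 2 under the first 6 of these, in that order, and stayed 0 without any 1 array. TAPBPL was the 1 member called without the lowest 30% and with 1 symbol only. The companion genes called, 2, became 9 with a trend, 9 with robust variances as well, 9 above the negative controls only, and 0 to 1 in the fits that lacked 1 array. With the replicate number as a block, which pairs arrays of the same number, 1 transcript cluster, 0 members and 0 companion genes passed. The cause of these moves was not tested. With signals near the negative controls, TAP1 has only a bound.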

Other observations

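Among the chromosomal neighbours of the members, CKMT1A, a mitochondrial creatine kinase gene beside PDIA3 on chromosome 15, was 2.4-fold higher with fb-PMT and did not pass (SE 0.15 on the log2 scale, adjusted p = 0.0765 in limma's test). Its values were 9.52 and 9.38 in control cells, against 10.69 and 10.73 after fb-PMT. CKMT1B is a near-identical copy, so the signal can come from either gene.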
